A study of Gallus gallus with 9 samples.

Results

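The ubiquitin carboxyl-terminal hydrolases are the 4 related genes UCHL1, UCHL3, UCHL5 and BAP1, and they were followed here in the livers of 9 broilers, chickens bred for meat. Members were all probe sets of the array whose single gene symbol in the platform annotation is one of these 4 names. These are 4 of 13009 genes and 11 of 38439 probe sets: 3 for UCHL1, 1 for UCHL3, 2 for UCHL5 and 5 for BAP1. The 9 birds were ROSS308, a commercial line, and all were 35 days old at slaughter. The 4 control birds ate a standard diet without added selenium from the first day of life. The 5 Se-yeast birds ate that same diet with selenized yeast, which added 0.5 mg of selenium per kg. Each bird gave 1 array, and 1 further control sample had been left out by the submitters for its quality. The labels give neither the sex nor the housing of a bird.

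These enzymes are cysteine proteases that cut ubiquitin, a small protein tag, from the end of short adducts or from other proteins. UCHL1 is known in mammals as one of the most abundant proteins of neurons, and it is also found in neuroendocrine and germ cells. UCHL3 is a widely expressed relative that also accepts the ubiquitin-like protein NEDD8. UCHL5 works at the proteasome and in the INO80 chromatin remodelling complex, and BAP1 is a nuclear enzyme that removes ubiquitin from a histone.

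The family was chosen by the UCHL1 difference between the diets in these same 9 birds, so the UCHL1 values are described without a test. Its other 3 genes were chosen by their relation to UCHL1. Signal is the linear MAS5 intensity of a probe set, in which every array was scaled to a common mean. Differences between diets are Se-yeast minus control on the log2(signal + 16) scale. A probe set was tested when its mean level over the 9 arrays reached a signal of 64.7, the 40th percentile. In the limma fit 6 of the 23063 tested probe sets passed at an adjusted p under 0.05, which is 0.026%, and 2 of them, or 0.00867%, were lower in Se-yeast birds. Of the 11 members 7 were tested and 4 lay below the filter, so no statement about the tested ones covers the whole family. The arrays are too few for small changes. In simulated data with 200 changed probe sets, only 38.8% of log2 changes of 1.0 were found. That share may be lower where fewer probe sets change. No detection calls were used.

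UCHL1 had the largest difference of the 11 probe sets, on 1 of its 3. On that probe set, Gga.9618.1.S1_at, the control birds had signals of 998, 1182, 1494 and 1915. The Se-yeast birds had 565, 562, 410, 467 and 390. Each of the 5 Se-yeast birds lay below the lowest control bird, and the groups did not overlap. Among all tested probe sets 0.75% had Se-yeast birds that were all lower in this way, and since the gene was chosen for this difference nothing follows from its being one of them. Control livers averaged 1397 ± 401 (SD, n = 4). Se-yeast livers averaged 479 ± 82.1 (SD, n = 5). The log2 difference was -1.49 with a standard error of 0.20, and control livers were 2.80-fold higher on that scale. In whole liver RNA, fewer cells that carry a transcript and less transcript per cell cannot be told apart.

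**Figure D1:**
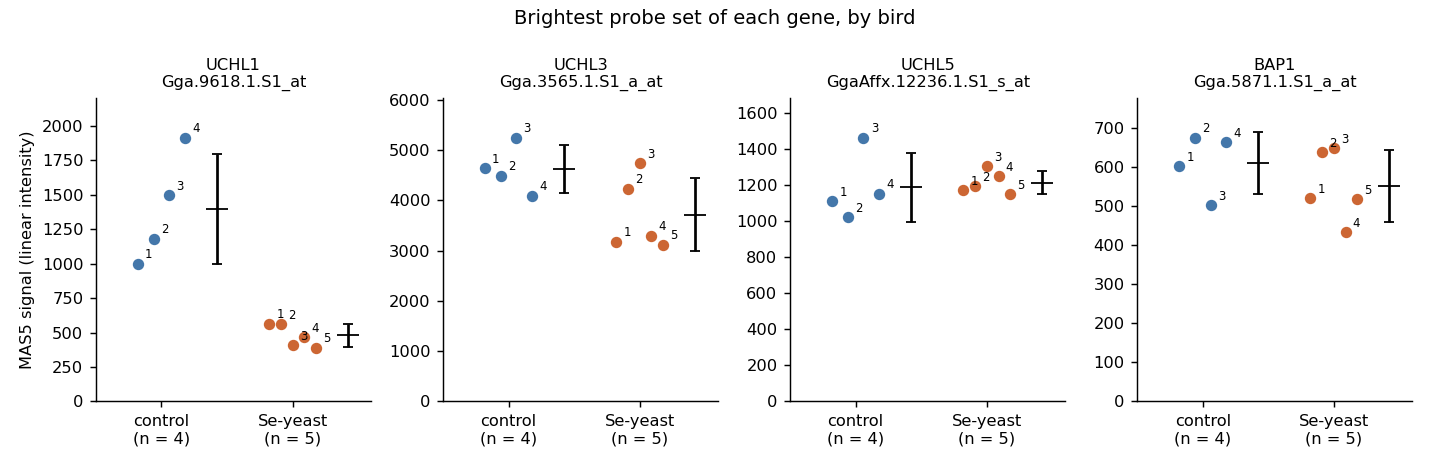
MAS5 signal (linear axis from 0) of the brightest probe set of each gene in every bird. Points are birds with their replicate numbers, and the bars beside them give the mean ± SD of the 4 control or 5 Se-yeast birds. The UCHL1 groups are apart, at 998 to 1915 against 390 to 565, and the groups of the other 3 genes overlap.

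The control birds differed more among themselves in UCHL1 signal than the Se-yeast birds did. The highest control bird had 1.92 times the signal of the lowest, against 1.45 times among Se-yeast birds. The SD of log2 values within the diets was 0.32, and 46.3% of the tested probe sets varied less than that.

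The other UCHL1 probe sets were dim, and they differed in opposite directions. On Gga.12837.1.A1_at the control birds had signals of 15.9, 14.3, 15.8 and 13.9, while the Se-yeast birds had 31.1, 79.3, 6.62, 56.2 and 53.0. Here 4 of the 5 Se-yeast birds lay above the highest control bird, which is the opposite direction. The log2 difference was 0.83 with a standard error of 0.39. It depends on the constant added to the signal, at 1.17 with 1 and 0.43 with 64. On GgaAffx.9050.1.S1_at the control signals were 12.2, 33.9, 63.1 and 31.3 and the Se-yeast signals 5.31, 23.6, 15.5, 32.5 and 1.66. Those groups overlapped, and the log2 difference was -0.69 with a standard error of 0.38. That value lies on the same side as the bright probe set and also depends on the constant, at -1.40 with 1 and -0.31 with 64. Both probe sets averaged below the filter: only 1 bird exceeded the filter signal on the first and 0 birds did on the second. Neither was tested. Within the diets they had r = 0.19 (rho = -0.17) and r = 0.41 (rho = 0.35) with the bright probe set over 9 birds, as a description of values that share their arrays.

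**Figure D2:**
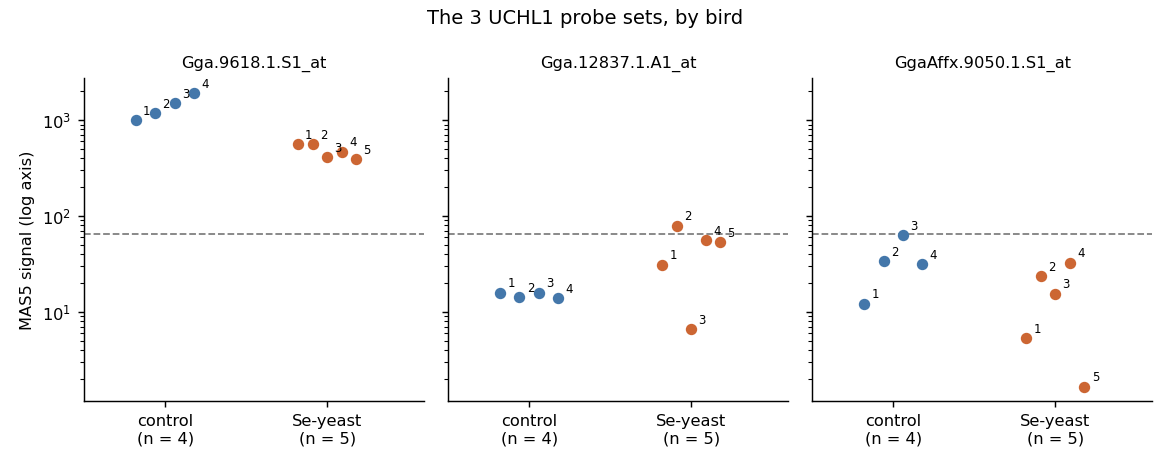
MAS5 signal on a log axis for the 3 UCHL1 probe sets in every bird, with replicate numbers beside the points. The dashed line is the filter signal of 64.7. Gga.9618.1.S1_at lies above it in all 9 birds and Gga.12837.1.A1_at in 1, and Gga.12837.1.A1_at runs the other way in 4 of 5 Se-yeast birds.

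UCHL3 was the next most different gene of the family on its brightest probe set, at a much smaller size. Its 1 probe set, Gga.3565.1.S1_a_at, had signals of 4641, 4495, 5253 and 4096 in control birds. The Se-yeast birds had 3182, 4233, 4743, 3298 and 3121. Se-yeast replicates 1, 4 and 5 lay below every control bird and the other 2 lay within the control range. The means were 4621 ± 480.3 (SD, n = 4) and 3715 ± 731 (SD, n = 5). The log2 difference was -0.33, with a 95% interval from -0.66 to -0.0011, and it did not pass (limma adjusted p = 0.999, unadjusted p = 0.0493). At an unadjusted p under 0.05 there were 1078 tested probe sets, or 4.67%, so a value like that of UCHL3 was common on these arrays.

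UCHL5, the proteasome-bound member, gave different values on its 2 probe sets. The bright one, GgaAffx.12236.1.S1_s_at, whose name marks probes that can also read other transcripts, had control signals of 1109, 1022, 1463 and 1152. The Se-yeast signals were 1170, 1193, 1306, 1247 and 1148, all inside the control range. The log2 difference was 0.04, with a 95% interval from -0.25 to 0.34 (limma adjusted p = 0.999). The interval leaves room for a change of up to 1.26-fold upward. With arrays centred on their medians this value turned to -0.02. The within-diet SD was 0.15, and only 6.82% of tested probe sets varied less. On the dimmer GgaAffx.12236.1.S1_at the control signals were 299, 218, 278 and 233, against 179, 261, 95.3, 238 and 243 in Se-yeast birds. There Se-yeast replicates 1 and 3 lay below all control birds, and the log2 difference of -0.38 (95% interval -0.95 to 0.20) did not pass (limma adjusted p = 0.999). It was -0.15 without Se-yeast replicate 3. Over the 9 birds the 2 probe sets had r = -0.10 within the diets.

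BAP1, the nuclear member, overlapped between diets on all of its 5 probe sets. The brightest, Gga.5871.1.S1_a_at, had signals of 602, 676, 503 and 665 in control birds. The Se-yeast birds had 520.2, 639, 649, 433 and 519. Only Se-yeast replicate 4 fell outside the control range, on the low side. The log2 difference was -0.15, with a 95% interval from -0.51 to 0.21 (limma adjusted p = 0.999). GgaAffx.26189.1.S1_at gave nearly the same difference, -0.15 (95% interval -0.58 to 0.29), at means of 179 ± 34.1 and 159 ± 23.8. GgaAffx.26189.2.S1_at stood at 0.14 (95% interval -0.52 to 0.80), at means of 282 ± 85.4 and 324 ± 131, and it also had adjusted p = 0.999 by limma. Its sign turned to -0.02 without Se-yeast replicate 1 and to -0.05 without control replicate 1. The 2 dimmest probe sets lay below the filter, at -0.04 and 0.00, with signals between 10.1 and 155.

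**Figure D3:**
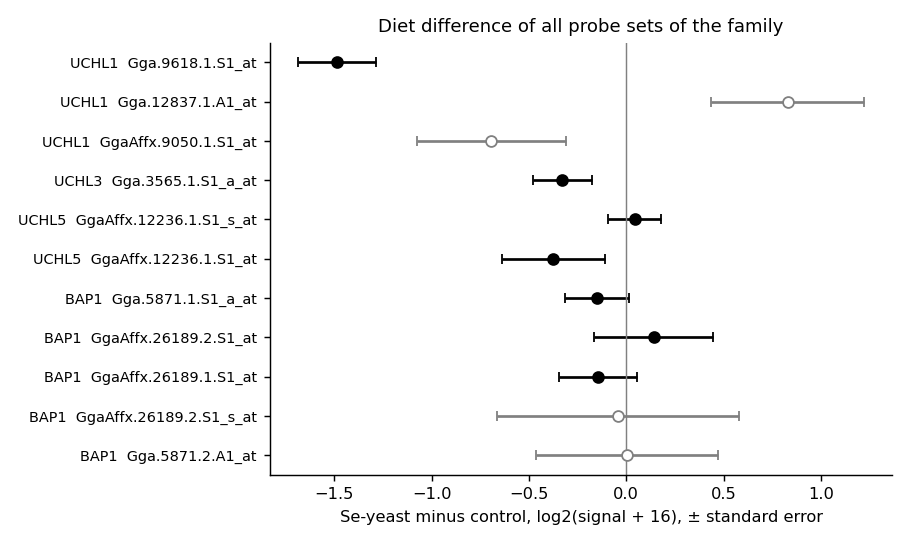
Se-yeast minus control difference on the log2(signal + 16) scale for all 11 probe sets, with bars of ± 1 standard error. Filled points are the 7 tested probe sets and open points the 4 below the filter. UCHL1 on Gga.9618.1.S1_at stands at -1.49, and the 6 tested probe sets of the other genes lie between -0.38 and 0.14.

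None of the 6 tested probe sets of UCHL3, UCHL5 and BAP1 passed, and the lower ends of their 95% intervals ran from -0.95 to -0.25. The difference between UCHL1 and its relatives was not tested, because the UCHL1 value had been used to choose the gene. Relative to the mean log2 level of the brightest UCHL3, UCHL5 and BAP1 probe sets on each array, UCHL1 differed by -1.34 between the diets. This measure holds the UCHL1 values that chose the gene, so it is no separate check of them. That measure was added after the data had been seen, and it spanned -0.55 to 0.38 in control and -1.92 to -1.13 in Se-yeast birds. Within the diets UCHL1 had r = -0.13 with UCHL3, 0.25 with UCHL5 and 0.03 with BAP1 over 9 birds, on the brightest probe sets. The value for BAP1 depended on the probe set: it was 0.81 on GgaAffx.26189.1.S1_at (rho = 0.80) and 0.58 on GgaAffx.26189.2.S1_at (rho = 0.60), both tested and dimmer. UCHL3 stood at r = 0.51 with UCHL5 and 0.40 with BAP1 on the brightest probe sets. Those signs turned on the other tested ones. With UCHL5 on GgaAffx.12236.1.S1_at r was -0.43. With BAP1 it was -0.42 on GgaAffx.26189.2.S1_at and -0.29 on GgaAffx.26189.1.S1_at. These values are descriptions of 9 arrays that share their scaling.

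Members of the other deubiquitinase families were compared as a list of 75 genes. Of these 54 had a probe set with a single symbol and 49 were tested by their brightest one. None passed in either direction (limma), where 0.0385% of all genes did; 22 differences were above 0 and 27 below, and the median was -0.01, against 0.02 over all 10382 genes. At an unadjusted p under 0.05 there were 2 of 49, or 4.08%, against 5.04% of all genes. OTUD6A, an ovarian tumour domain protease, had the smallest p, at -0.38 and means of 5068 ± 715 and 3865 ± 289. USP4 stood at 0.35, with 2080.4 ± 243 and 2676 ± 521, and USP10, a protease known to act on p53 in human cells, stood at 0.33 on its brightest probe set and at -0.05 on the other. USP44, a mitotic checkpoint protease, stood at -0.30, and its 4 probe sets reached up to 0.17. The second probe set of USP4 stood at 0.09. The 49 differences ranged from -0.38 to 0.35.

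Of 12 genes that supply ubiquitin and NEDD8, 6 had a probe set with a single symbol, and all 6 were tested. None passed, 1 difference was above 0 and 5 below, with a median of -0.08, and 1 of 6 had an unadjusted p under 0.05, or 16.7% against 5.04% of all genes. That gene was UBE2F, which loads NEDD8 onto its targets. Its mean of 2196 ± 119 (SD, n = 4) on the control diet compared with 1803 ± 179 (SD, n = 5) on Se-yeast, a difference of -0.29 (95% interval -0.55 to -0.02; limma adjusted p = 0.999). The highest Se-yeast bird, at 2016, lay just under the lowest control bird, at 2036, as in 0.75% of tested probe sets. UBA3, the catalytic part of the enzyme that activates NEDD8, stood at -0.18, and UBA6, an activating enzyme for ubiquitin, at -0.14, with another of its 3 probe sets at 0.18. RPS27A, which encodes ubiquitin joined to a ribosomal protein, was bright and stood at 0.07, with 35689 ± 3653 and 37662 ± 4995.

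Partners of UCHL5 and BAP1, as they are known from human and mouse cells, did not pass either. For UCHL5, 12 of 16 proteasome and INO80 complex genes were tested, 7 above and 5 below 0, with a median of 0.03 and 2 at an unadjusted p under 0.05, or 16.7% against 5.04% of all genes. ACTL6A, an actin-related subunit, stood at -0.33 and spanned 423 to 484 in control and 320 to 421 in Se-yeast birds, without overlap. INO80, the motor of the complex, stood at 0.30, with 871 to 1120 and 1143 to 1447 in the same order, also apart. Another INO80 probe set stood at -0.37, so its probe sets disagreed. ADRM1, the proteasome subunit that holds UCHL5, stood at -0.23 on its brightest probe set and at 0.85 on the other. RUVBL1, a helicase-like subunit, stood at -0.25. Over all tested probe sets 0.75% were apart on the lower side, as ACTL6A was, and 0.889% on the higher side, as INO80 was.

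For BAP1, 9 of 12 partners were tested, 5 above and 4 below 0, with a median of 0.16 and 1 at an unadjusted p under 0.05, or 11.1% against 5.04% of all genes. The median turned to -0.01 without control replicate 2 and to -0.03 without control replicate 3, and it was 0.06 without control replicate 1, 0.07 without Se-yeast replicate 3 and 0.06 with the probe sets of a gene averaged. The member at an unadjusted p under 0.05 was ASXL1, a cofactor that activates BAP1, at -0.55 (95% interval -0.98 to -0.13; limma adjusted p = 0.999). Its mean of 312 ± 52.8 on the control diet compared with 209 ± 48.8 on Se-yeast, and its other probe set stood at -0.06. ASXL2, a related cofactor, stood at 0.23 and OGT, which adds a sugar to nuclear proteins, at 0.25. FOXK1, a forkhead factor that brings BAP1 to DNA, stood at 0.27. None of these passed.

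**Figure D4:**
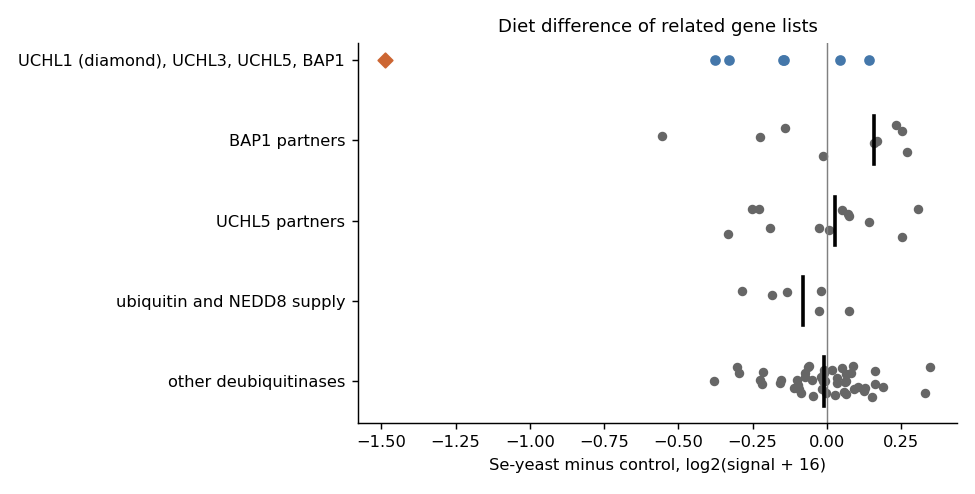
Se-yeast minus control difference on the log2(signal + 16) scale for each gene of the 4 lists by its brightest tested probe set, with black bars at the list medians. The top row holds the 7 tested members, UCHL1 as a diamond. The 4 lists lie between -0.55 and 0.35, and UCHL1 at -1.49.

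The genes beside UCHL1 on chromosome 4 were read as a check of the region, by their order in the RefSeq annotation of the GRCg7b assembly. This reading was chosen after the data had been seen. Of 10 protein-coding genes, 5 on either side, 6 were tested. None passed (limma), where 0.0385% of all genes did. At an unadjusted p under 0.05 there were 0 of 6, against 5.04% of all genes. So few genes cannot show a departure from these shares. The differences ran from -0.56 to 0.26. The direct neighbours were LIMCH1, at 0.26 with a standard error of 0.35, and APBB2, at -0.20 with a standard error of 0.18. BEND4 stood lowest, at -0.56 with a standard error of 0.27.

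The genes whose signal ran most like UCHL1 from bird to bird within the diets were ranked by Pearson's r of deviations from the diet means, over the 9 birds and all tested probe sets with 1 symbol. The highest were NEURL2 at r = 0.97, RCC1L and INF2 at 0.96 each, DRC3 at 0.96 and RAD54L2 at 0.95. The lowest were C1GALT1 at -0.99, THAP6 at -0.96 and BIRC2 at -0.95. These are the extremes of a ranking of 17934 probe sets over 9 arrays, given as a description with no test. C1GALT1, an enzyme that builds sugar chains on proteins, had signals of 1992, 1823, 1620 and 1346 in control birds and 1643, 1656, 1993, 1746 and 2014 in Se-yeast birds. Its order was the reverse of that of UCHL1 within each diet, but its diet difference was 0.10 (limma adjusted p = 0.999). None of these 8 genes passed between the diets, with differences from -0.07 to 0.49. For UCHL3 the highest were NAA15 and EMC3, for UCHL5 SLC4A2 and LOC415780, and for BAP1 ARFIP1 and SHFM1, at r from 0.95 to 0.99.

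The tissue label was checked against markers. All 11 measured hepatocyte markers lay above the filter, led by the fibrinogen chain FGG and albumin, with mean signals of 71336 and 69119. Neuron and nerve markers were mostly dim: 5 of 15 measured ones lay above the filter, and the brightest was NEFH, a neurofilament chain, at 288. DBH and TUBB3 followed at 121 and 112, also above the filter. The synaptic gene SNAP25 and the neuronal RNA-binding gene ELAVL4 averaged 34.8 and 23.4, among the dimmest of the list. Both lay below the filter and were picked for naming after their values were seen. The list summed to 878 to 1225 in control birds and to 986 to 1336 in the others, and the mean log2 level differed by 0.01. Neuroendocrine markers, with 4 of 7 above the filter and SCG5 the brightest at 498, summed to 1059 to 1515 and 830 to 1566 in the same order. The summed levels of both marker lists overlapped between the diets.

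Other cell types of the liver were read in the same way. Stellate cell and fibroblast markers, with 11 of 14 above the filter, differed by 0.05, and bile duct markers, with 4 of 6, by 0.16. Lymphocyte markers differed by 0.08, endothelial markers by 0.05, glia and Schwann cell markers by 0.19 and erythroid markers by -0.14. The 6 glia and Schwann cell genes ran from -0.53 to 1.27. Both of these ends were dim genes, with mean signals of 71.2 and 94.9. Hepatocyte markers differed by 0.23 in mean log2 level. On that measure the diets overlapped, because the lowest Se-yeast level (15.049) fell under the highest control level (15.053). Their summed linear signals did not overlap, with 402720 to 476864 in control and 477286 to 725990 in Se-yeast birds. Macrophage markers differed by 0.19, at 80286 to 102280 and 100732 to 118532. The part of hepatocyte and macrophage content in the UCHL1 difference was not tested. No member of any marker list passed.

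Within the diets, the bright UCHL1 probe set was set against the level of each of these 10 marker lists and of 10 probe sets on chromosome W, which is carried by hens. None of the 11 relations passed after adjustment (two-sided exact permutation of birds within each diet, all orders). The nearest were the stellate and fibroblast level, at r = -0.70 (exact permutation p = 0.0983, adjusted p = 0.407) and rho = -0.70 (exact permutation p = 0.0792, adjusted p = 0.435), and the bile duct level. The latter had r = 0.69 (exact permutation p = 0.0618, adjusted p = 0.407) and rho = 0.68 (exact permutation p = 0.0694, adjusted p = 0.435). Without the 2 birds farthest from the median these became -0.71 and 0.32. For the bile duct level the birds left out were control replicate 1 and Se-yeast replicate 1. Leaving out the most extreme birds also narrows the range of the level. With 1 bird left out the bile duct r ran from 0.50 to 0.81. The neuron and nerve level had r = 0.09 (exact permutation p = 0.789, adjusted p = 0.868) and rho = 0.12 (exact permutation p = 0.760, adjusted p = 0.836), with r = 0.05 without 2 birds. Its r turned to -0.32 with quantile normalization and to -0.59 with centring on the array median. The neuroendocrine level had r = 0.14 (exact permutation p = 0.679, adjusted p = 0.830) and rho = 0.18 (exact permutation p = 0.651, adjusted p = 0.795). Without control replicate 3 and Se-yeast replicate 1 its r was 0.72 (exact permutation p = 0.0486, unadjusted), and with centring it was -0.07. The endothelial level had r = -0.55, and -0.81 without control replicate 3 and Se-yeast replicate 3 (exact permutation p = 0.0694, unadjusted). For the chromosome W level r was 0.41, and 0.76 without control replicate 3 and Se-yeast replicate 1 (exact permutation p = 0.236, unadjusted).

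HINTW, a gene of chromosome W named here after its values were seen, had a signal of 396 in Se-yeast replicate 1 and of at most 114 in the other birds. UCHL1 differed by -1.55 between the diets without that bird and by -1.68 with the chromosome W level as a covariate. That level is the mean of 10 probe sets, among them several of NEDD4L and that of MBD2. MBD2 had signals of 2022 to 3183 over the 9 birds. LOC107049459, also among the 10, ranged more widely, from 25.6 to 1254. The level was not checked as a measure of sex, and the part of sex in the UCHL1 difference was not tested.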

How the data were processed

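RNA from the livers of 9 birds was measured on 1-colour Affymetrix chicken arrays, 1 per bird. Per the labels' protocols, 7 ug of Trizol-extracted RNA was made into biotin-labelled cRNA. The deposited values are linear intensity values of probe sets, made with MAS5 per the submitters' processing notes; its version and any genome build are not given in the sources used here. MAS5 scales each array to a common mean, so changes are relative to the rest of the array. The median signal of an array was 100.5 to 125.

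From these values 96 array controls were left out. Values were taken as log2(signal + 16), which draws differences of dim probe sets towards 0. Probe sets at or above the 40th percentile of mean level (6.33) were fitted with limma 3.58.1 in R 4.3.3 (eBayes with an intensity trend, no covariates), two-sided, with Benjamini-Hochberg adjustment over all 23063. Errors of values below the filter come from the same fit without a filter. Genes were named from 27168 probe sets with 1 symbol; 177 had several and 11094 had none here. The analysis was tested on simulated data with the means and spread of these arrays. Each of 5 runs held 200 changed probe sets. Of log2 changes of 0.5, 1.0, 1.5 and 2.0, it found 6%, 38.8%, 75.6% and 83.6%, with a mean of 5 false calls. In the real fit 6 probe sets passed. The adjustment is stricter when fewer probe sets change, so these shares may be too high for the real arrays.

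Members, lists and tests were chosen with earlier results of these data known. The rule for named genes took all members, the 4 genes of each list with the smallest p and the genes most like each member within the diets. It also allowed the 3 brightest of each marker list, of which FGG, albumin, NEFH, DBH, TUBB3 and SCG5 are named. SNAP25, ELAVL4, HINTW, MBD2, NEDD4L, LOC107049459 and the neighbours of UCHL1 lie outside that rule and were chosen after the data had been seen. P-values rest on the spread between birds, which the labels call biological replicates. Housing is not given, so if birds of a diet were housed together, housing and diet cannot be told apart. Alternatives covered the pseudocount, filter, scaling, variance trend, replicate block, chromosome W level and each bird left out.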

Additional observations from a re-analysis of the deposited data

Results flagged for a closer look

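The mean log2 level of the 10 chromosome W probe sets stood apart in Se-yeast replicate 1, at 8.42 against 8.08 to 8.12 in the other 4 Se-yeast birds. The gap was 0.88 of the range of the group, above the limit of 0.71 for 5 samples. It was the only such sample among 44 sets of birds examined (11 probe sets and 11 marker levels in each diet), where chance alone marks about 1 in 20.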

How the results depend on the processing

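The UCHL1 difference on Gga.9618.1.S1_at lay between -1.68 and -1.32 over 19 alternatives, and between -1.63 and -1.32 when 1 bird was left out. It chose the gene and its groups do not overlap, so leaving out a bird could not turn its sign, and the filter and variance settings cannot move it; this range is no sign of stability. The number of probe sets past the threshold was less stable. It was 2 with the chromosome W level, 3 without the intensity trend and 3 with the replicate block, and 3 to 7 when 1 bird was left out, the 3 arising without Se-yeast replicates 1, 3 or 4 or control replicate 3. No lower probe set passed with the chromosome W level or without the intensity trend, so UCHL1 did not pass there. The same held without Se-yeast replicates 1, 3 or 4 or control replicate 3. Quantile normalization gave 5 higher and 1 lower, against 4 and 2. UCHL1 had -1.42 with the replicate block. Same-numbered birds had correlations of -0.11 to 0.04 over tested probe sets, in deviations from probe set means and not in the signals themselves. No control bird was closest to its own number. Such low correlations cannot show whether the numbers pair birds, and the labels do not say. No tested probe set of UCHL3, UCHL5 or BAP1 passed in 108 alternative values (smallest limma adjusted p 0.944), and no member of the 4 gene lists passed in any. List medians also changed sign, with ranges of -0.04 to 0.09 for UCHL5 partners, -0.07 to 0.05 for other deubiquitinases and -0.03 to 0.19 for BAP1 partners. UCHL3 was negative in all 18, and UCHL5 on GgaAffx.12236.1.S1_at ran from -0.48 to -0.15 when 1 bird was left out. BAP1 on GgaAffx.26189.2.S1_at turned to -0.21 with the chromosome W level and ran from -0.053 to 0.35 when 1 bird was left out; the other UCHL5 probe set, GgaAffx.12236.1.S1_s_at, turned to -0.016 with centring on the array median and ran from -0.024 to 0.15. The dim UCHL1 probe set GgaAffx.9050.1.S1_at moved to -1.40 with a pseudocount of 1. Of 154 alternative values of the within-diet relations 0 passed and 14 changed sign. Quantile normalization gave r = -0.732 for hepatocyte and -0.318 for neuron markers, centring gave -0.592 for neuron and -0.0725 for neuroendocrine markers, and leaving out 2 birds gave -0.127 for glia, -0.128 for lymphocytes and 0.00502 for erythroid cells. With 1 bird left out r ran from -0.47 to 0.26 for erythroid, -0.15 to 0.69 for macrophage, -0.033 to 0.63 for neuroendocrine and -0.023 to 0.41 for neuron markers. The causes were not tested. With 4 and 5 birds, small differences are mostly missed, and dim signals have no reliable order. In simulated data with 200 changed probe sets, 6% of log2 changes of 0.5 and 38.8% of changes of 1.0 were found. Those shares may be lower where fewer probe sets change. These shares are over probe sets of every spread. A gene that did not pass may therefore still hold a change, of a size that its 95% interval limits. For the 6 tested probe sets of UCHL3, UCHL5 and BAP1 the intervals lay between -0.95 and 0.80.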
